A study of Homo sapiens with 18 samples.

Results

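The centromere and kinetochore genes described here are 33 genes listed by symbol, of the 20365 genes in the count tables of both experiments. They encode the CENP proteins, which sit on or near centromeric chromatin, and the proteins of the outer kinetochore. All 33 were found in both tables, and all 33 had a mean of at least 10 normalised counts over the 9 libraries of each experiment, the minimum for testing. By role they comprise 3 proteins at the base of the centromere (CENP-A, CENP-B and CENP-C), 12 other proteins of the constitutive centromere-associated network (CCAN, to which CENP-C is also counted), 2 of the KNL1 complex, 4 of the MIS12 complex, 4 of the NDC80 complex, 3 of the SKA complex, 2 of the RZZ complex, 2 large corona proteins and CENPJ. CENPJ carries a CENP symbol but encodes a centriole protein, and its values are given apart.

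RNA was sequenced from PC3, an established human prostate cancer cell line, in 18 libraries. In the first experiment, lentiviral short hairpin RNAs lowered Elongin B in the EloB KD group and Elongin C in the EloC KD group, and cells with a control hairpin formed the Control KD group. All these cells are given as grown with 10% serum. In the second experiment, cells in 2.5% serum received 12500 nM of a peptide for 24 h. The WT peptide group was set against a Mutant peptide and a Scrambled peptide group, and no untreated group was analysed. Each of the 6 groups had 3 libraries. The labels give neither the hairpin nor the peptide sequences, nor whether 1 or several hairpins were used per gene, and they do not say that replicates were separate cultures. The p-values therefore describe only the spread among these libraries, which may be technical. Elongin B and Elongin C bind each other and work with the elongation factor Elongin A. They also serve cullin ubiquitin ligases as an adaptor, to which receptor proteins bind through a short motif called the BC-box.

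The kinetochore is the protein structure that attaches a chromosome to spindle microtubules. CENP-A, a histone H3 variant, marks the centromere throughout the cell cycle, the CCAN assembles on it, and in mitosis the KNL1, MIS12 and NDC80 complexes bridge the CCAN to microtubules. Many of these genes are transcribed mainly in late S phase, G2 and mitosis, under the DREAM and MMB-FOXM1 complexes acting through promoter elements called CHR, and their level in a culture is known to vary with the share of dividing cells. In bulk RNA, fewer cells in a given phase and less RNA per cell cannot be told apart.

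Promoters of 6 members called below are shown as examples. CENPA, CENPF, NDC80 and NUF2 were higher with the WT peptide and are the members called there whose tabulated window held a CHR core. CENPE and CENPI, also higher with the WT peptide, held none and are not shown. SKA2 was higher and MIS12 lower in EloB KD. Each window holds 250 bases before to 50 bases after the gene start, as tabulated by RefSeq on GRCh38.p14, 5′ to 3′ on the gene's own strand. In the first 4 the capitals mark the CHR core (TTTGAA or TTCGAA, searched on both strands), and in the last 2 they mark the CCAAT box (CCAAT on either strand). CCAAT boxes in CENPA (2) and CENPF (4) are left in small letters.
CENPA (chr2:26785806-26786105, plus strand): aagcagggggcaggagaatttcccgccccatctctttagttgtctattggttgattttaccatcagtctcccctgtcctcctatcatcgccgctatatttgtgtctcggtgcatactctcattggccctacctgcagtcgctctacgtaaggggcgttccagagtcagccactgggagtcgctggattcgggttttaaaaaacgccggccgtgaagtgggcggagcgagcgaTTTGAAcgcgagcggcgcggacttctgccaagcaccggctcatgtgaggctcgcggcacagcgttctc
CENPF (chr1:214602945-214603244, plus strand): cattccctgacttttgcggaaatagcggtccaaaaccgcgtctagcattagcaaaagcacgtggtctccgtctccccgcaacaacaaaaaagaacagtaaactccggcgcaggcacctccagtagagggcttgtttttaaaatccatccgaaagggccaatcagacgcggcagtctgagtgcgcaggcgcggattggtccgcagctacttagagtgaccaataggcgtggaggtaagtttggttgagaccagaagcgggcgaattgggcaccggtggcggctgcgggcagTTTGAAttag
NDC80 (chr18:2571307-2571606, plus strand): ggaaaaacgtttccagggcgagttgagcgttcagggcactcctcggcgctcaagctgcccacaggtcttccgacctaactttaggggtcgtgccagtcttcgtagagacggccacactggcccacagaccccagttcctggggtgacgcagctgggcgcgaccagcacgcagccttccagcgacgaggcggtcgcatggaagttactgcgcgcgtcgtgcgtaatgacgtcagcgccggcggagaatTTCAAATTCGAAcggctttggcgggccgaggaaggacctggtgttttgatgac
NUF2 (chr1:163321704-163322003, plus strand): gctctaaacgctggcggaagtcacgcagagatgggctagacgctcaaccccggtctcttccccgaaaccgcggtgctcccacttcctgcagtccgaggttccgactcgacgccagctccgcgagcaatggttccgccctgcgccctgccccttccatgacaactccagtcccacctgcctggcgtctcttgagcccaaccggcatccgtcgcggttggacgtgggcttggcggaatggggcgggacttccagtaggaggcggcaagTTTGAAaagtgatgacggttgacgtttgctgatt
SKA2 (chr17:59155137-59155436, minus strand): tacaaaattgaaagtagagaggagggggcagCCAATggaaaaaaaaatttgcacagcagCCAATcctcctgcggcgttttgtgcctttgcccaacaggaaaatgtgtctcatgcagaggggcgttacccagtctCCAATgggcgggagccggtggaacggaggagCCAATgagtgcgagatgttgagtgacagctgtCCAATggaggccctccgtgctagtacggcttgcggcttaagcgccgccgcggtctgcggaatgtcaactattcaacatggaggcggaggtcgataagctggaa
MIS12 (chr17:5486124-5486423, plus strand): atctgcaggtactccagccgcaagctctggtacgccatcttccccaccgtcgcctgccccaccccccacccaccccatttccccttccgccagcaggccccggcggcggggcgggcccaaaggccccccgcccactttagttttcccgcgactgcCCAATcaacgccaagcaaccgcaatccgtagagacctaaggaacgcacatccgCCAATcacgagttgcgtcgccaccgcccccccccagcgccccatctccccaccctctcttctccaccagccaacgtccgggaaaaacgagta

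The table held a promoter for 27 of the 33 members and none for CENPH, CENPL, CENPM, KNL1, KNTC1 and CENPJ. A CHR core occurred in 12 of the 27 (44.4%), against 16.6% of all 27305 promoters of the table. A CCAAT box occurred in 15 of the 27 (55.6%), against 35.7% of all promoters. The core of an E2F element (GGCGGGA, both strands, with overlap between motifs allowed) occurred in 11 of the 27 (40.7%), against 15.5%. In all 12 members with a CHR core, one lay within 100 bases before to 50 bases after the start, where 7.43% of all promoters had one. The CHR core of CENPA began 18 bases before the start and that of NUF2 16 bases after it. NDC80 held 2 of these cores side by side at its start. SKA2 held 5 CCAAT boxes and no CHR core, and MIS12 held 2 CCAAT boxes and no CHR core. Of the 6 members with a tabulated promoter that were called higher with the WT peptide, 4 held a CHR core (66.7%), against 8 of the other 21 members (38.1%). The other motifs went the other way. A CCAAT box occurred in 2 of the 6 (33.3%), against 13 of the 21 (61.9%). The E2F core occurred in 2 of the 6 (33.3%), against 9 of the 21 (42.9%). CENPE and CENPI, also called with the WT peptide, held no CHR core in the tabulated window. The CENPI window (chrX:101100808-101101107) lies downstream of the outermost gene start in GENCODE (101098218) and may not hold its promoter. CENPI is still counted among the 6 and the 27. The CENPA and NUF2 windows also lie downstream of such a start (26764289 and 163266576). Which start PC3 cells use was not tested. A match of letters is a description of the sequence and was not tested for binding.

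Between 40.3 and 57.2 M reads were counted per knockdown library and between 31.7 and 34.7 M per peptide library, and the members took 0.130% to 0.198% and 0.193% to 0.246% of them. ELOB, the target of the EloB hairpin, had 596, 478 and 535 normalised counts in EloB KD, against 2626, 4118 and 4950.3 in Control KD. ELOC had 492, 497 and 558 normalised counts in the EloC KD libraries, against 4797, 4097 and 4547 in Control KD. Both targets were thus low in every library labelled as their knockdown, and neither is a centromere gene. PC3 markers were present, with 63198 ± 5072 normalised counts of VIM and 5690.0 ± 509 of KRT18 in Control KD (SD, n = 3), while KLK3, a marker of prostate luminal cells, was at 0. Of the markers of blood, endothelial, stromal and liver cells, PTPRC, CD3E and ALB stayed at or under 13.4 normalised counts. PECAM1 (690 to 2239 normalised counts) and COL1A1 (183 to 2464) were detected in all 18 libraries. Of the 6 PC3 markers, 4 fell in EloC KD: EPCAM showed a log2 fold change of -1.76 ± 0.18 at an adjusted p of 6.45e-05 and KRT18 of -0.96 ± 0.13 at an adjusted p of 0.00029 against Control KD. In EloB KD, 2 of the 6 fell, KRT19 and HOXB13. Of all genes tested, 21.2% were called lower in EloC KD and 11.2% in EloB KD. The collagen gene COL1A1 rose in EloC KD (log2 1.99 ± 0.19) and COL3A1 in EloB KD (log2 1.30 ± 0.21), and the part of these markers in the results was not tested.

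Library levels of the members were compared before the groups, as the mean of log2(normalised count + 1) over the 33 genes relative to the Control KD or Scrambled peptide mean. EloB KD replicate 1 stood apart at -0.53, with EloB KD replicates 2 and 3 at 0.14 and 0.10, and Control KD libraries at -0.20, -0.01 and 0.20. It was the lowest of the 9 libraries for 23 of the 33 members. The same library was the lowest for a list of 14 proliferation markers, at -0.72, against 0.08 and 0.02 in EloB KD replicates 2 and 3. EloC KD libraries lay at -0.08, -0.09 and 0.11 for the members but at -0.54, -0.68 and -0.27 for the proliferation markers. In the peptide experiment the WT peptide libraries lay at 0.29, 0.21 and 0.31, the Mutant peptide libraries at 0.18, 0.12 and 0.21, and the Scrambled peptide libraries at 0.03, -0.09 and 0.06. Scrambled peptide replicate 2 was the lowest of its 9 libraries for 24 of the 33 members. The 3 WT peptide libraries were all above the 3 Scrambled peptide libraries for the members, and so they were for the proliferation markers (0.20, 0.10 and 0.16, against 0.04, -0.08 and 0.04). The Mutant peptide libraries lay at 0.17, 0.06 and 0.17 for these markers, near the WT peptide libraries. By gene, 7 of the 14 markers had a log2 fold change above 0 with the WT peptide and 11 with the Mutant peptide, each against the Scrambled peptide.

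**Figure D1:**
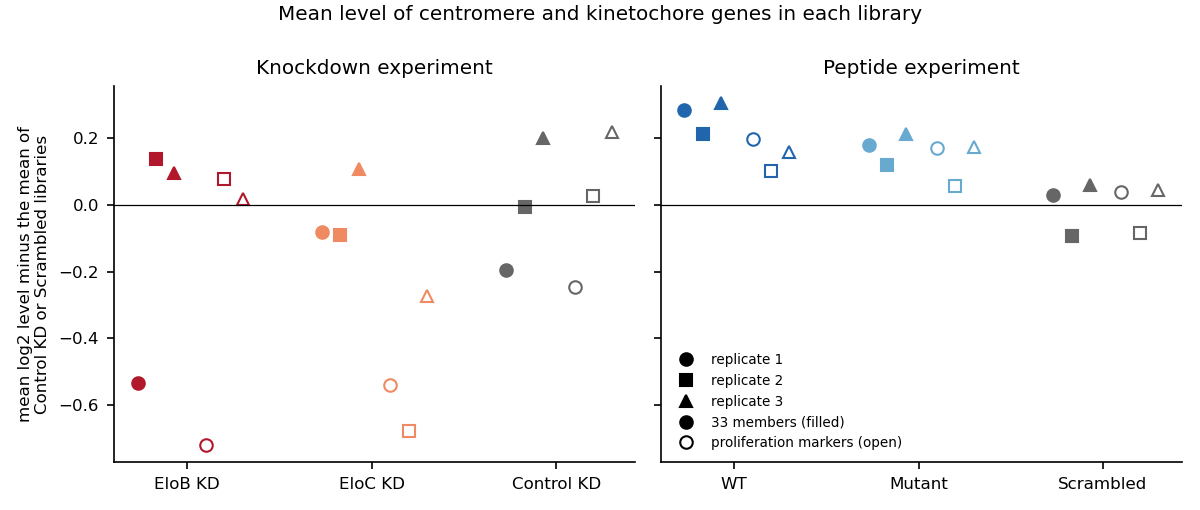
Mean log2 level of the 33 members (filled) and of 14 proliferation markers (open) in each library, relative to the mean of the Control KD libraries (left) or Scrambled peptide libraries (right); the marker shape gives the replicate number. EloB KD replicate 1 lies at -0.53 for the members, apart from its 2 companions, and the WT peptide libraries lie above the Scrambled peptide libraries.

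Per kilobase of annotated exon, the members spanned a wide range of levels in Control KD. ZWINT, which links KNL1 to the RZZ complex, was the highest at 4300.3 ± 611 normalised counts per kb (SD, n = 3), followed by CENPB, which binds a DNA box in alpha satellite repeats, at 2336 ± 544 and DSN1 of the MIS12 complex at 1318 ± 151. The lowest were CENPC, which ties the CENP-A nucleosome to the outer kinetochore, at 114 ± 2.79, CENPP at 56.9 ± 7.66 and SKA1 at 33.3 ± 11.9. On this scale CENPB and DSN1 lay above CENPC by more than their spread. The length used is the union of all annotated exons of a gene, which can exceed the transcript expressed. It was 9794 bases for CENPP and 8613 for CENPC, against 2840 for CENPB and 2739 for DSN1, and the ranks depend on it. In Scrambled peptide cells ZWINT (3928 ± 222), CENPB (2814 ± 63.1) and DSN1 (1236 ± 52.4) were again the 3 highest per kb.

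The first comparison, of EloB KD with Control KD, asked how these genes respond to loss of Elongin B. SKA2 and CENPT rose and MIS12 fell in EloB KD, and the other 30 members did not pass the test. The test was limma on log2(normalised count + 1) over all genes, with an adjusted p under 0.05 (Benjamini-Hochberg) counted as called. Against these 3 of 33 members, 20.5% of the 13764 genes tested were called, 9.34% higher and 11.2% lower. The members' median log2 fold change was -0.11, beside 0.00 for all genes. That median was 0.17 without EloB KD replicate 1 and ranged over -0.28 to 0.17 with each library left out in turn.

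SKA2 encodes a subunit of the SKA complex, which helps kinetochores hold the ends of microtubules. It had 4937, 7321 and 6545 normalised counts in EloB KD, against 3350.0, 2969.9 and 3998 in Control KD. The groups did not overlap, and the lowest EloB KD library was replicate 1. The rise was 1.81-fold (log2 0.86 ± 0.15 at an adjusted p of 0.00317). The other subunits did not pass the test: SKA1 had 34.5, 74.9 and 73.9 normalised counts in EloB KD, against 64.1, 96.6 and 134 in Control KD, and SKA3 had 799, 2119 and 1862 in EloB KD, against 1314, 1802 and 2109 in Control KD. The groups overlapped for both genes, and log2 fold changes were -0.70 (adjusted p 0.172) and -0.22 (adjusted p 0.659).

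MIS12 encodes a subunit of the complex that joins CENP-C to NDC80. It had 1053, 1103 and 1159 normalised counts in EloB KD, against 1754, 1505 and 1813 in Control KD. Every EloB KD library was below every Control KD library, and EloB KD replicate 1 did not stand apart for this gene. MIS12 fell 1.53-fold (log2 -0.61 ± 0.10 at an adjusted p of 0.00192). Its 3 partners did not pass the test, with log2 fold changes of 0.00 ± 0.16 for DSN1, 0.10 ± 0.09 for NSL1 and -0.11 ± 0.15 for PMF1. MIS12 shares 9.53% of its exon bases with DERL2 on the opposite strand, and DERL2 showed a log2 fold change of 0.11 (adjusted p 0.428). PMF1 shares 23.3% of its exon bases with PMF1-BGLAP on the same strand, and the effect of this on the PMF1 counts was not tested.

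CENPT encodes a histone-fold protein of the CCAN whose tail recruits NDC80. It had 1793, 1623 and 1653 normalised counts in EloB KD, against 1068, 1208 and 1493 in Control KD, with no overlap. The log2 fold change was 0.44 ± 0.12 at an adjusted p of 0.026. The call was lost when any EloB KD library, or Control KD replicate 1 or 2, was left out, with adjusted p of 0.0513 to 0.0808. It was also lost in a fit of only EloB KD and Control KD (0.0556) and without number 1 in all groups (log2 0.29, adjusted p 0.203). CENPT shares 10.8% of its exon bases with TSNAXIP1 on the opposite strand, whose mean was 139 ± 21.3 normalised counts in EloB KD and 49.7 ± 10.4 in Control KD. Whether counting used strand is not given in the sources used here, and the part of TSNAXIP1 reads in CENPT was not tested.

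Among the remaining members in EloB KD, the corona protein CENPF, a large microtubule-binding protein, showed a log2 fold change of -0.46 ± 0.22 (adjusted p 0.167) and CENPM, a CCAN subunit, of -0.51 ± 0.32 (adjusted p 0.295). CENPM counts were 205, 349.6 and 383 in EloB KD, against 269, 475 and 619.7 in Control KD. EloB KD replicate 1 was the lowest of these for CENPM, and Control KD replicate 1 was low as well. With the replicate number as a block in the fit, 7 members were called, 3 higher and 4 lower, where 36.3% of all genes were. CENPQ (adjusted p 0.026) was then also higher, and CENPB (0.004), CENPM (0.00824) and SKA1 (0.0449) were also lower.

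**Figure D2:**
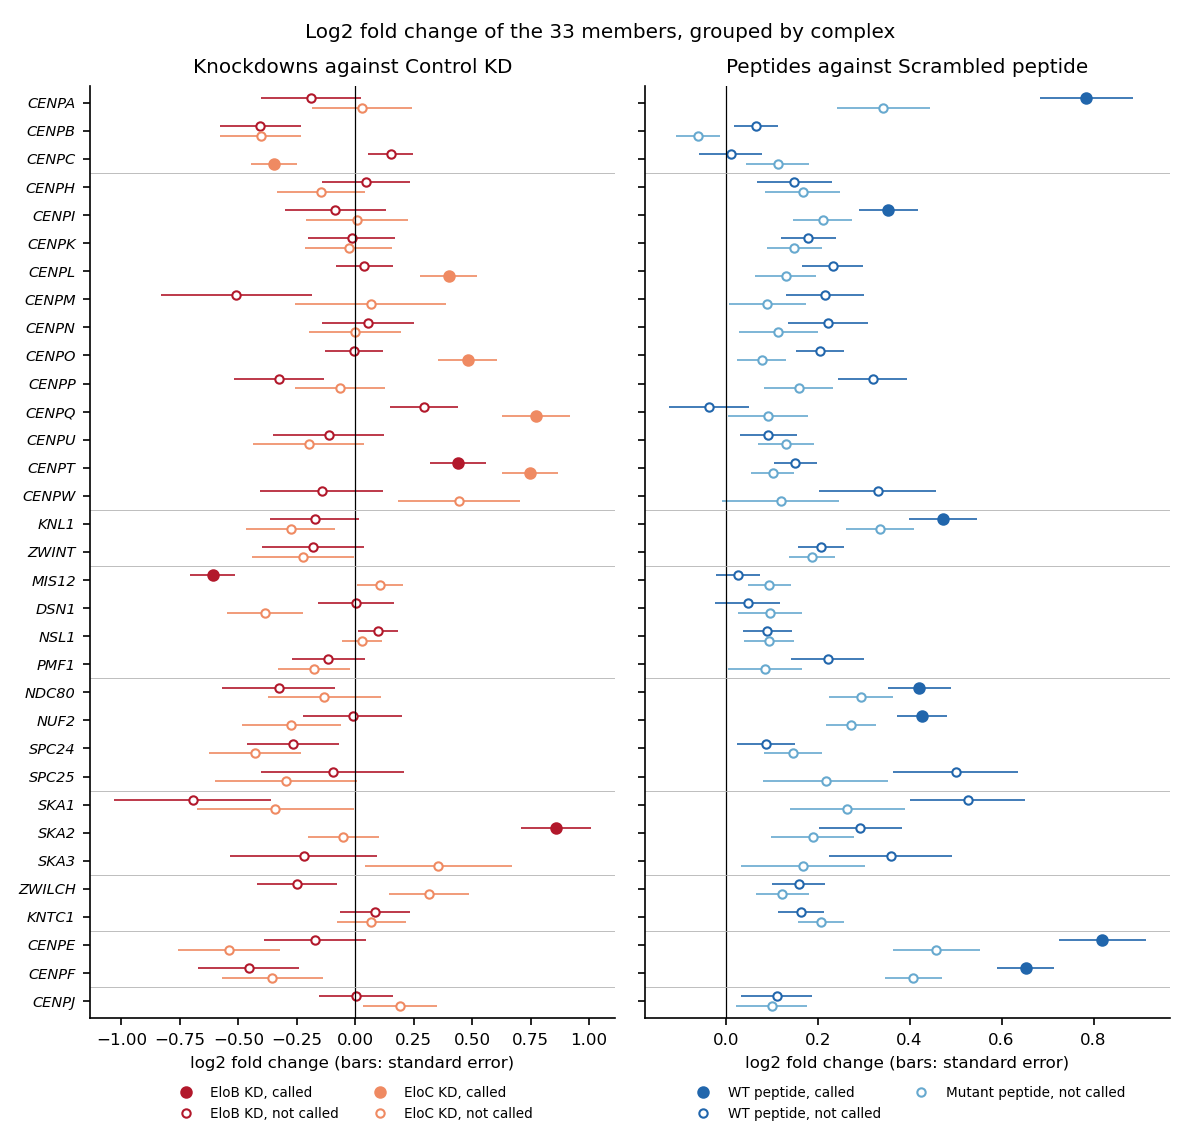
Log2 fold change of each member (points, with standard errors from limma as bars), grouped by complex in rows, for both knockdowns against Control KD (left) and both peptides against Scrambled peptide (right); filled points have an adjusted p under 0.05. Knockdown values lie on both sides of 0, whereas 32 of 33 members lie above 0 for each peptide.

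The second comparison, of EloC KD with Control KD, addressed loss of Elongin C. CENPQ, CENPT, CENPO and CENPL, all of the CCAN, rose in EloC KD, and CENPC fell. The other 28 members did not pass the test. Against these 5 of 33 members, 42.5% of all genes tested were called, 21.3% higher and 21.2% lower, and the members' median log2 fold change was -0.05, beside 0.01 for all genes. With each library left out in turn that median ranged over -0.15 to 0.06, and it was above 0 without Control KD replicate 3. All 4 genes that rose belong to the 12 members grouped as CCAN, of which none fell, where 42.5% of all genes were called. CENPC, which fell, is also counted to the CCAN but is grouped with the base of the centromere here.

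CENPQ and CENPO encode parts of a CCAN subcomplex that also includes CENP-P and CENP-U. CENPQ had 1099, 1366 and 1165 normalised counts in the EloC KD libraries, against 665, 764 and 692 in Control KD, and rose 1.71-fold (log2 0.77 ± 0.14 at an adjusted p of 0.00181). CENPO had 2466, 2402 and 2639.8 normalised counts in the EloC KD libraries, against 1746, 1818 and 1815 in Control KD (log2 0.48 ± 0.12 at an adjusted p of 0.0103). Neither gene's groups overlapped. The other 2 members in this subcomplex did not pass the test: CENPP showed a log2 fold change of -0.06 ± 0.19 and CENPU of -0.20 ± 0.24, with adjusted p of 0.814 and 0.522. CENPO shares 27.0% of its exon bases with ADCY3 on the opposite strand, and ADCY3 showed a log2 fold change of -0.19 (adjusted p 0.284). CENPP shares 38.0% with IPPK on the opposite strand, and IPPK rose (log2 0.61 at an adjusted p of 0.00395). The effect of these overlaps on the counts was not tested.

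CENPT had 2096, 2115 and 2059.8 normalised counts in the EloC KD libraries, against 1068, 1208 and 1493 in Control KD, and rose 1.68-fold (log2 0.75 ± 0.12 at an adjusted p of 0.000707). The EloC KD libraries were close together and all above Control KD. TSNAXIP1, the overlapping gene, had 57.9 ± 7.03 normalised counts in EloC KD and 49.7 ± 10.4 in Control KD (adjusted p 0.427). CENPW, the histone-fold partner of CENP-T, had 1072, 1254 and 1373 normalised counts in the EloC KD libraries, against 774, 959 and 987 in Control KD. Those groups did not overlap either, but CENPW did not pass the test (log2 0.44 ± 0.26 at an adjusted p of 0.195).

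CENPL, which with CENP-N contacts the CENP-A nucleosome, had 4029, 4264 and 4512 normalised counts in the EloC KD libraries, against 3020.3, 3132 and 3569.7 in Control KD (log2 0.40 ± 0.12 at an adjusted p of 0.0224). Its call was lost without Control KD replicate 1 or 2 or without EloC KD replicate 2 or 3, with adjusted p of 0.0567 to 0.0711. CENPC had 760.0, 735 and 815 normalised counts in the EloC KD libraries, against 996, 952 and 991 in Control KD, and fell 1.27-fold (log2 -0.35 ± 0.10 at an adjusted p of 0.0145). All EloC KD libraries were below all Control KD libraries, and the 3 Control KD values lay within a narrow range. CENPN, the partner of CENP-L, had 2258, 2327 and 2514 normalised counts in the EloC KD libraries, against 1971, 2613 and 2568 in Control KD, and did not pass the test (adjusted p 0.998).

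CENPE, the kinesin that moves chromosomes to the spindle equator, had 3952, 3807 and 4684 normalised counts in the EloC KD libraries, against 5224, 6072 and 6849.6 in Control KD. The groups did not overlap, but CENPE did not pass the test (log2 -0.54 ± 0.22 at an adjusted p of 0.068). All 4 NDC80 complex genes had log2 fold changes under 0, between -0.43 (SPC24) and -0.13 (NDC80), and none passed. With the replicate number as a block, 10 members were called in EloC KD, 5 higher and 5 lower, where 57% of all genes were. CENPW (adjusted p 0.036) joined those that were higher, and CENPB (0.00208), DSN1 (0.0111), SPC24 (0.0298) and CENPE (0.0118) those that were lower.

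EloB KD and EloC KD were compared directly, since both were set against the same Control KD libraries above. SKA2 and CENPC were higher in EloB KD, and MIS12, ZWILCH, CENPO, CENPQ and CENPL were lower. Against these 7 of 33 members, 46.1% of all genes tested were called, 22.3% higher and 23.8% lower. SKA2 showed a log2 fold change of 0.91 ± 0.15 at an adjusted p of 0.000743, and MIS12 of -0.72 ± 0.10 at an adjusted p of 0.000218. For both genes EloC KD lay near Control KD, with 3216, 3128 and 3559.7 normalised counts of SKA2 and 1783, 1846 and 1814 of MIS12. CENPC had 1056, 1166 and 1046 normalised counts in EloB KD, against 760.0, 735 and 815 in EloC KD (log2 0.50 ± 0.10 at an adjusted p of 0.00189).

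ZWILCH, a subunit of the RZZ complex that brings dynein and checkpoint proteins to the kinetochore, had 1796, 2998 and 2876 normalised counts in EloB KD, against 3636, 3453 and 3984 in EloC KD (log2 -0.56 ± 0.17 at an adjusted p of 0.0202). EloB KD replicate 1 was far below the other 2 EloB KD libraries, and all 3 were below EloC KD. Without EloB KD replicate 1 the log2 fold change of ZWILCH was -0.33, still called, and without EloC KD replicate 3 its adjusted p was 0.0657. CENPO showed a log2 fold change of -0.49 ± 0.12 at an adjusted p of 0.0089, CENPQ of -0.48 ± 0.14 at an adjusted p of 0.0203 and CENPL of -0.36 ± 0.12 at an adjusted p of 0.032. Without EloB KD replicate 1 the CENPQ and CENPL differences did not pass (log2 -0.35 and -0.23, adjusted p 0.0720 and 0.1005), nor did they without number 1 in all groups (adjusted p 0.0616 and 0.0759). CENPQ was also lost without EloB KD replicate 3 or EloC KD replicate 2 (0.0526 and 0.0787), and CENPL without EloC KD replicate 2 or 3 (0.0721 and 0.0957) and with quantile normalisation (0.0788). CENPT did not differ by the test between the knockdowns (log2 -0.31 ± 0.12 at an adjusted p of 0.0558). Leaving out EloB KD replicate 1 gave 10 called members, 7 higher and 3 lower in EloB KD, where 40.3% of all genes were called, 19.6% higher and 20.7% lower. The block gave 12, of which 3 were higher and 9 lower, where 59.4% of all genes were called.

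**Figure D3:**
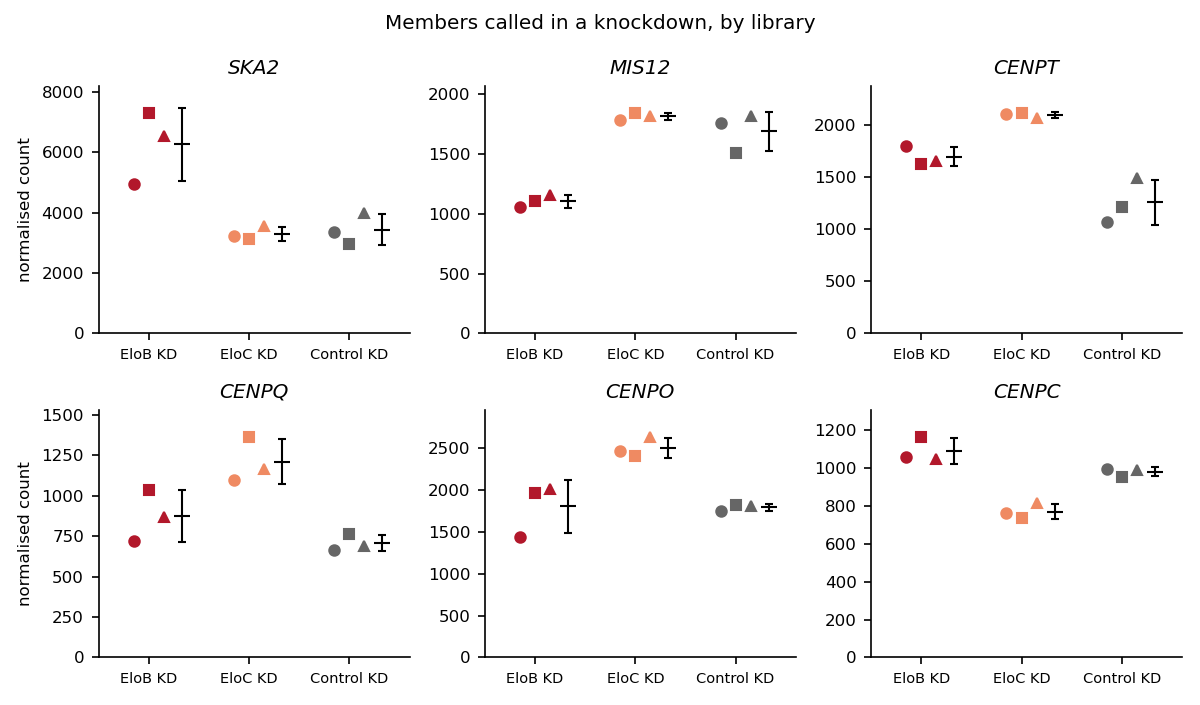
Normalised counts in each library (circle, square and triangle for replicates 1, 2 and 3), with the group mean and SD as a bar, for 6 members called in a knockdown. SKA2 is high and MIS12 low in EloB KD alone among the 3 groups, CENPQ and CENPO are high in EloC KD, CENPC is low in EloC KD, and CENPT is higher in both knockdowns than in Control KD.

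The WT peptide was set against the Scrambled peptide to ask what a peptide with the BC-box does beyond peptide exposure itself. CENPE, CENPA, CENPF, KNL1, NUF2, NDC80 and CENPI rose with the WT peptide, by 1.28-fold to 1.76-fold, and no member fell. Against these 7 of 33 members, 1.43% of the 13105 genes tested were called in either direction and 0.839% were called higher. The members' median log2 fold change was 0.22, beside 0.00 for all genes, and 32 of the 33 lay above 0, as did 50.02% of all genes. For 22 members all WT peptide libraries were above all Scrambled peptide libraries, which held for 10.3% of all genes.

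Both corona proteins were among the members with the largest change. CENPE had 4627, 4231 and 4852 normalised counts with the WT peptide, against 2861, 2181 and 2772 with the Scrambled peptide, and rose 1.76-fold (log2 0.82 ± 0.09 at an adjusted p of 0.00349). CENPF had 6264, 5959 and 6904 normalised counts with the WT peptide, against 4205, 3888 and 4057 with the Scrambled peptide (log2 0.65 ± 0.06 at an adjusted p of 0.0015). For both genes the groups were well apart, and Scrambled peptide replicate 2 was the lowest library.

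At the base of the centromere, CENPA rose while CENPB and CENPC did not pass the test. CENPA, whose promoter is shown above with 1 CHR core, had 977, 927 and 1049 normalised counts with the WT peptide, against 607, 479.5 and 637 with the Scrambled peptide, and rose 1.72-fold (log2 0.78 ± 0.10 at an adjusted p of 0.00498). CENPB had 8667, 8379.6 and 8063 normalised counts with the WT peptide, against 7789, 8131 and 8053 with the Scrambled peptide. CENPC had 621, 685 and 714 with the WT peptide, against 646, 683 and 672 with the Scrambled peptide. Their log2 fold changes were 0.07 ± 0.05 and 0.01 ± 0.07, and the groups overlapped for both genes.

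Of the complexes that bind microtubules, NDC80 and NUF2, which form the dimer that contacts the microtubule, both rose. NDC80 had 1688, 1559 and 1541 normalised counts with the WT peptide, against 1278, 1087 and 1214 with the Scrambled peptide (log2 0.42 ± 0.07 at an adjusted p of 0.019). NUF2 had 2337, 2224 and 2242 normalised counts with the WT peptide, against 1782, 1564 and 1721 with the Scrambled peptide (log2 0.43 ± 0.05 at an adjusted p of 0.0047). The dimer at the other end, which binds the MIS12 complex and CENP-T, did not pass: SPC25 had 475, 379 and 467 with the WT peptide, against 326, 269 and 338 with the Scrambled peptide (log2 0.50 ± 0.14 at an adjusted p of 0.12), and SPC24 a log2 fold change of 0.09 ± 0.06. SPC25 was further from 0 than NUF2 but had a wider spread, and its groups did not overlap.

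KNL1, the scaffold on which the checkpoint kinase BUB1 is placed, had 3408, 3283 and 3673 normalised counts with the WT peptide, against 2633, 2207 and 2642 with the Scrambled peptide (log2 0.47 ± 0.07 at an adjusted p of 0.0148). ZWINT, its partner, had 10945, 10536 and 10860.0 with the WT peptide, against 9412, 8781 and 9828 with the Scrambled peptide, without overlap, and a log2 fold change of 0.21 ± 0.05 at an adjusted p of 0.0857. ZWINT thus did not pass the test. None of the MIS12 complex genes was called, with log2 fold changes of 0.03 ± 0.05 for MIS12, 0.05 ± 0.07 for DSN1, 0.09 ± 0.05 for NSL1 and 0.22 ± 0.08 for PMF1.

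In the CCAN only CENPI was called of 12 members, with 2874, 2588 and 2727 normalised counts with the WT peptide, against 2212, 1970.3 and 2232 with the Scrambled peptide (log2 0.35 ± 0.06 at an adjusted p of 0.0298). CENPI binds CENP-H and CENP-K in the network, and their log2 fold changes were 0.15 ± 0.08 and 0.18 ± 0.06. The 4 CCAN genes that rose in EloC KD had log2 fold changes of -0.04 ± 0.09 (CENPQ), 0.15 ± 0.05 (CENPT), 0.21 ± 0.05 (CENPO) and 0.23 ± 0.07 (CENPL) with the WT peptide, none called. The 3 SKA genes had log2 fold changes of 0.53 ± 0.13 (SKA1), 0.29 ± 0.09 (SKA2) and 0.36 ± 0.13 (SKA3), and both RZZ genes of 0.16. None of these passed the test, and the centriole gene CENPJ, at 0.11 ± 0.08, did not either.

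With the replicate number as a block, 23 members were called higher with the WT peptide and none lower, where 16.2% of all genes were called and 7.96% were called higher. The 16 members added were CENPK, CENPL, CENPM, CENPN, CENPO, CENPP, CENPT, CENPW, ZWINT, PMF1, SPC25, SKA1, SKA2, SKA3, ZWILCH and KNTC1. DESeq2 called 12 members higher, where it called 4.21% of all genes. Only 4 members were called when WT peptide replicate 1 or 3 was left out, where 67 and 66 genes were called in all. KNL1, NDC80 and CENPI lost the call in both cases. NDC80 and CENPI also lost it without Scrambled peptide replicate 2 (adjusted p 0.0510 and 0.0898), and CENPI without Scrambled peptide replicate 1 (0.0776) and in a fit of only the WT and Scrambled peptide groups (0.0602).

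**Figure D4:**
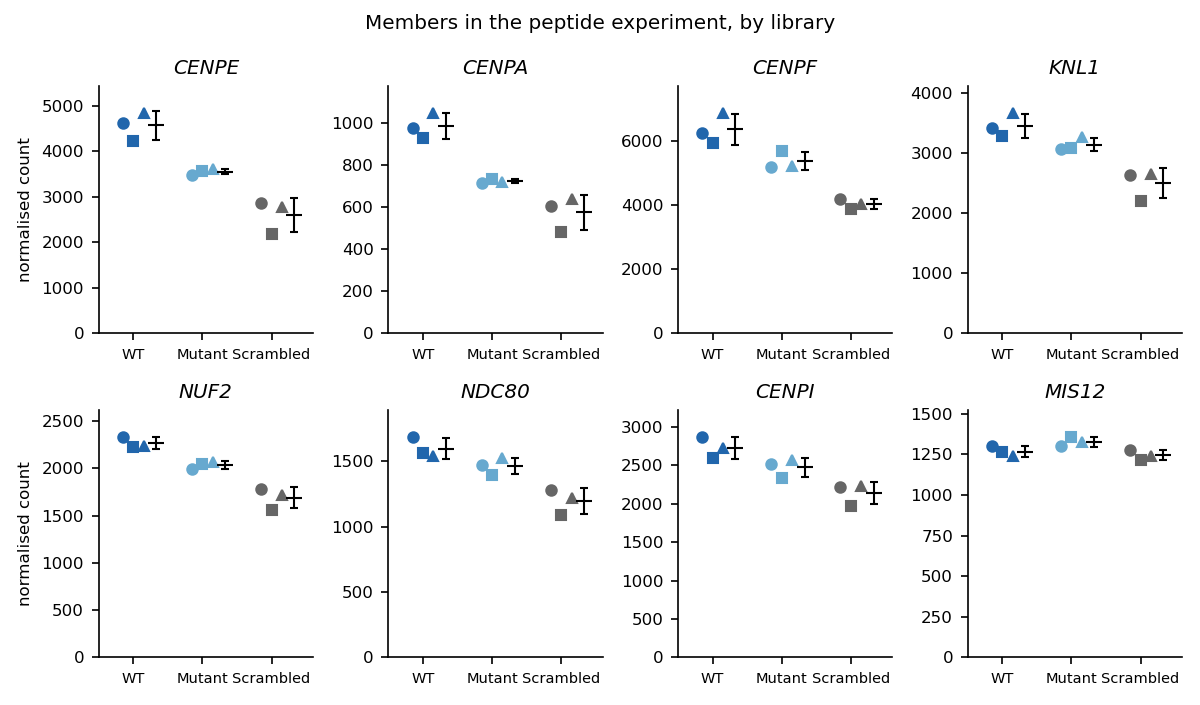
Normalised counts in each library (circle, square and triangle for replicates 1, 2 and 3), with the group mean and SD as a bar, for the 7 members called with the WT peptide and for MIS12. The Mutant peptide libraries lie between the WT and Scrambled peptide libraries for the 7 called members, while the MIS12 groups lie close together.

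The Mutant peptide was set against the Scrambled peptide, and the WT against the Mutant peptide, to ask whether the mutation removes the difference. In limma without the replicate block, no member was called in either comparison, and no gene of the 13105 was (0%). At an unadjusted p under 0.05, 11 members and 1142 genes differed between Mutant and Scrambled peptide, and 6 members and 898 genes between WT and Mutant peptide. edgeR called 0 genes in both comparisons. DESeq2 called 7 members among 184 genes (1.4%) in the first of these comparisons and 2 members among 62 genes (0.473%) in the other.

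Values with the Mutant peptide lay mostly above those with the Scrambled peptide. The median log2 fold change of the members was 0.15 for the Mutant against the Scrambled peptide, with 32 of 33 above 0, and 0.11 when the WT was set against the Mutant peptide, with 24 above 0. Without Mutant peptide replicate 2 the WT minus Mutant peptide median was 0.07. Group means ran from WT through Mutant to Scrambled peptide, high to low, in 23 of 33 members and in 21.6% of all genes. For 18 members all Mutant peptide libraries were above all Scrambled peptide libraries (7.02% of all genes), and for 11 all WT peptide libraries were above all Mutant peptide libraries (6.4%). These comparisons share libraries, so they are not independent of each other.

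CENPE had 3490.4, 3561 and 3606 normalised counts with the Mutant peptide, between the WT and Scrambled peptide values, with log2 fold changes of 0.46 ± 0.09 at an adjusted p of 0.137 for Mutant against Scrambled peptide and 0.36 ± 0.09 at an adjusted p of 0.442 for WT against Mutant peptide. CENPF had 5191, 5697 and 5236 normalised counts with the Mutant peptide (log2 0.41 ± 0.06 at an adjusted p of 0.0739 for Mutant against Scrambled peptide). CENPA had 716, 735 and 719.8 normalised counts with the Mutant peptide, below all WT peptide and above all Scrambled peptide libraries. The WT minus Mutant peptide difference of CENPA was 0.44 ± 0.10 at an adjusted p of 0.416, so the test did not separate the 2 peptides without the block. With the block, 12 members were called higher with the Mutant than the Scrambled peptide, none lower, where 8.3% of all genes were called and 3.72% were called higher. The block also gave 7 members higher with the WT than the Mutant peptide, none lower, where 4.09% of genes were called and 2.4% were called higher. These 7 were CENPA (adjusted p 0.00396), CENPE (0.00327), CENPF (0.015), SKA3 (0.0217), CENPW (0.0255), SPC25 (0.0307) and CENPI (0.0437).

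Across both experiments 15 of the 33 members were called in at least 1 comparison, as were 62.4% of the 13074 genes tested in both. With the replicate block the members called were 29, beside 81.1% of genes, and only CENPH, CENPU, NSL1 and CENPJ were called in none. CENPT was the 1 member called in both knockdowns without the block, higher in each. With the block CENPT and CENPQ were higher in both and CENPB was lower in both, and the knockdowns share the Control KD libraries. No member was called both in a knockdown against Control KD and with the WT peptide without the block (0.627% of genes were). With the block 8 were, beside 12.1% of genes, namely CENPL, CENPM, CENPO, CENPT, CENPW, SKA1, SKA2 and CENPE. The 18 members called in none without the block were CENPB, CENPH, CENPK, CENPM, CENPN, CENPP, CENPU, CENPW, ZWINT, DSN1, NSL1, PMF1, SPC24, SPC25, SKA1, SKA3, KNTC1 and CENPJ. SKA1 was the least counted member, at 98.2 ± 35 normalised counts in Control KD, and had the widest standard error of the members in the knockdown fit.

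Genes that work with the kinetochore were read beside the members. Of 15 tested partners, which include the spindle checkpoint and the chromosomal passenger complex, 10 rose with the WT peptide and none fell. Of all genes tested there, 0.839% were called higher and 1.43% in either direction. The passenger subunit BIRC5 had 13404, 13204 and 13527 normalised counts with the WT peptide, against 9563, 9030.4 and 10048 with the Scrambled peptide (log2 0.49 ± 0.04 at an adjusted p of 0.0015). PLK1, the mitotic kinase, showed a log2 fold change of 0.74 ± 0.06 at an adjusted p of 0.0015, and the passenger subunit CDCA8 of 0.49 ± 0.05 at an adjusted p of 0.00175. The others were AURKB and INCENP of the passenger complex, the checkpoint proteins BUB1 and BUB1B, the anaphase activator CDC20, the cohesin protector SGO2 and SPDL1.

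In EloC KD, SPDL1, the dynein adaptor that binds the RZZ complex, rose (log2 0.31 ± 0.11 at an adjusted p of 0.0366), and BIRC5 and the checkpoint protein MAD2L1 fell. Of the 15 partners tested, 1 was thus called higher and 2 lower, where 42.5% of all genes were called. BIRC5 had 5122, 4216 and 7420.5 normalised counts in the EloC KD libraries, against 11575, 14778 and 17836 in Control KD (log2 -1.42 ± 0.28 at an adjusted p of 0.00248), and MAD2L1 showed a log2 fold change of -0.90 ± 0.21 at an adjusted p of 0.00666. BIRC5 therefore was lower in EloC KD and higher with the WT peptide, each against its own control.

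Of 7 other CCAN and CENP-A loading genes, HJURP, the chaperone that deposits CENP-A, was the 1 that rose with the WT peptide (log2 0.49 ± 0.08 at an adjusted p of 0.0188). Of all genes, 0.839% were called higher there. With the replicate block 6 of the 7 were called higher with the WT peptide and none lower, where 7.96% of all genes were called higher.

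Of 13 regulators of G2/M transcription, 1 rose with the WT peptide, where 0.839% of all genes were called higher. It was FOXM1, the forkhead factor of late cell-cycle genes (log2 0.51 ± 0.08 at an adjusted p of 0.0142). In EloC KD 2 of the 13 were called higher and 2 lower, where 42.5% of all genes were called. The MuvB subunits LIN52 (log2 0.69 ± 0.09 at an adjusted p of 0.000254) and LIN54 (log2 0.46 ± 0.13 at an adjusted p of 0.0168) rose. LIN54 is the subunit that binds CHR elements. RBBP4 and the DREAM pocket protein RBL2 fell in EloC KD, RBL2 to 2469.9, 1621 and 2231 normalised counts, against 6914, 6539.6 and 5706 in Control KD (log2 -1.62 ± 0.14 at an adjusted p of 3.00e-05).

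Of 14 proliferation markers, CCNB1 (log2 0.87 ± 0.07 at an adjusted p of 0.0015), TOP2A (0.62 ± 0.07), MKI67 (0.54 ± 0.05) and CCNA2 (0.41 ± 0.06) rose with the WT peptide and MCM6, a replication helicase subunit, fell (-0.28 ± 0.05). Of all genes, 0.839% were called higher with the WT peptide and 1.43% in either direction. The markers that rose are G2/M genes, as are many of the members, and their part in the members' values was not tested. In EloC KD, 5 of the markers fell (MKI67, TYMS, MCM3, MCM6 and MCM7) and none rose, where 21.2% of all genes were called lower. MKI67 had 6303, 4633 and 5775 normalised counts in the EloC KD libraries, against 8906, 10994 and 12639.9 in Control KD (log2 -0.96 ± 0.23 at an adjusted p of 0.00726). The markers' median log2 fold change was -0.53 in EloC KD, beside -0.05 for the 33 members. In EloB KD, limma called none of the partners, loading genes, regulators or proliferation markers (0 each), where 20.5% of all genes were called. At an unadjusted p under 0.05 only 1 gene of these lists differed, the regulator TFDP1 (adjusted p 0.103). The markers' median in EloB KD was -0.15. With the replicate number as a block, 10 of the 14 markers fell in EloC KD, where 57% of all genes were called, and 2 in EloB KD, where 36.3% were, and none rose in either. The block also called 2 loading genes higher and 1 regulator in each direction in EloB KD. With the WT peptide it called 6 markers higher and 4 lower, where 16.2% of all genes were called. The block called 14 of the 15 partners higher with the WT peptide and 13 with the Mutant peptide, each against the Scrambled peptide, and 8 higher with the WT than the Mutant peptide, with none lower. Of all genes, the block called 7.96%, 3.72% and 2.4% higher in these comparisons.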

How the data were processed

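The submitters' processing notes name hg38, featureCounts and DESeq2, and libraries were poly(A)-selected and stranded, per the labels' protocols. The aligner, versions and strand setting are not given in the sources used here. The authors deposited DESeq2-normalised counts (a signal, comparable between libraries of 1 experiment), 1 table each with 20365 genes. Whole reads were recovered from these values (100% within 0.05 reads). The adjusted p-values deposited by the authors for 4 comparisons were used beside the calls only. limma 3.58.1 (R 4.3.3, trend) was fitted to log2(normalised count + 1) where a gene's mean was 10 or more (13764 and 13105 genes), with the 3 groups of an experiment sharing 1 spread estimate and Benjamini-Hochberg adjustment at 0.05. n = 3 throughout. Errors of log2 fold changes are SE, those of levels SD. Alternatives were a replicate block, quantile and TMM scaling, other filters and pseudocounts, edgeR 4.0.16, DESeq2 1.42.0, the 2 groups alone, a threshold of 0.01 and leaving out libraries. The fits were tested on simulated data. Same-number libraries of different groups deviated together (correlations 0.236 to 0.566 and 0.254 to 0.715), so the numbers pair the libraries by this check, while the labels state no shared batch. Gene positions and overlaps come from GENCODE v29 on GRCh38. The members, lists and rule for named genes (all members, and up to 6 of each other list with the smallest p) were chosen with earlier results of these data known. Some genes of the lists are not reported here.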

Additional observations from a re-analysis of the deposited data

How the results depend on the processing

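Counting error was not measured apart from the other spread, and 3 libraries per group limit the precision. The members called under each setting are counted here, with all genes called in brackets. With the replicate block, 7 members were called in EloB KD against Control KD (4996), 10 in EloC KD (7841), 12 between the knockdowns (8171), 23 with the WT peptide (2122), 12 with the Mutant peptide (1088) and 7 between WT and Mutant peptide (536). The block ended no member's call. The unblocked counts were 3 (2822), 5 (5844), 7 (6343), 7 (188), 0 (0) and 0 (0). At an adjusted p under 0.01, members called were 2 in EloC KD (3774), 4 between the knockdowns (4271) and 4 with the WT peptide (64), and 1242 genes were called in EloB KD. A fit of only EloC KD and Control KD called 9 members (5647). Without number 1 in all groups 11 members were called in EloC KD (4844), and 1276 genes in EloB KD. DESeq2 called 12 members with the WT peptide (552), 7 with the Mutant peptide (184) and 2 between WT and Mutant peptide (62). Without number 2 in all groups, 2 members were called with the Mutant peptide (37) and 2 between WT and Mutant peptide (21). Leaving out 1 library at a time gave 2 to 3 members in EloB KD (1915 to 2373), 4 to 5 in EloC KD (4506 to 5413), 5 to 10 between the knockdowns (5170 to 5626), 4 to 7 with the WT peptide (66 to 180) and 0 to 0 in both other peptide comparisons (0 to 1 and 0 genes). The members' median log2 fold change in EloB KD ranged over -0.28 to 0.17, and was 0.17 without EloB KD replicate 1. The cause of these shifts was not tested. No called member changed sign in any of 19 alternatives. SKA2 and MIS12 in EloB KD, CENPQ and CENPT in EloC KD, and CENPE, CENPA, CENPF and NUF2 with the WT peptide kept their calls in all 19. CENPC in EloC KD lost it without number 1 in all groups (adjusted p 0.0771) and at 0.01.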

Other observations

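Of the 33 members, 8 start within 1000 bases of a protein-coding gene on the other strand that points away from them, and 7 of these neighbours were in the count tables. These genes were looked up after the members' values were seen. SKA2 and PRR11 start 230 bases apart. PRR11, a cell-cycle gene, had 5658, 11504 and 10090.2 normalised counts in EloB KD, against 8701, 10188 and 10838 in Control KD, a log2 fold change of -0.18 ± 0.23 at an adjusted p of 0.609, while SKA2 rose (0.86). With the WT peptide PRR11 had 7911, 7802 and 8436 normalised counts, against 5235, 4431 and 5399 with the Scrambled peptide (log2 0.69 ± 0.08 at an adjusted p of 0.00328), while SKA2 (0.29) did not pass the test. In EloC KD PRR11 fell (log2 -0.69 ± 0.23 at an adjusted p of 0.0315) and SKA2 had a log2 fold change of -0.05. The difference between the 2 genes of the pair was not tested.

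CENPB and CDC25B, a phosphatase that activates CDK1, start 82 bases apart. CDC25B fell in EloB KD, with 3012, 3484 and 4095 normalised counts, against 6621, 6671 and 7574 in Control KD (log2 -0.99 ± 0.11 at an adjusted p of 0.000333), and rose in EloC KD (log2 0.36 ± 0.11 at an adjusted p of 0.0259). CENPB had log2 fold changes of -0.41 and -0.40 in these comparisons and passed the test in neither without the block. With the replicate block CENPB was called lower in both (adjusted p 0.004 and 0.00208). The values of CDC25B are given without the block only. NDC80 and METTL4 start 2 bases apart. METTL4 rose in EloC KD, with 1525, 1579 and 1306 normalised counts, against 907, 778 and 847 in Control KD (log2 0.80 ± 0.11 at an adjusted p of 0.000288), where NDC80 had -0.13. With the WT peptide NDC80 rose and METTL4 (log2 0.16 ± 0.07 at an adjusted p of 0.373) did not pass the test.

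In the authors' deposited table of adjusted p-values, the members called numbered 3 in EloB KD and 6 in EloC KD, each against Control KD, then 9 in the direct comparison of the knockdowns and 11 with the WT peptide. Of all genes with a value in the authors' deposited table, 22.6%, 40.5%, 43.9% and 3.89% were called in these comparisons. All 3, 5, 7 and 7 members that limma called in these comparisons were among them.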
